A study of Sus scrofa with 6 samples.

Results

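Tubulin genes of the pig oocyte were followed across 6 RNA-seq libraries, 3 of oocytes exposed to malathion and 3 of control oocytes. The genes were chosen by name, as 10 pig gene symbols: the alpha-tubulins TUBA1A, TUBA1B, TUBA1C and TUBA4A, the beta-tubulins TUBB, TUBB2A, TUBB2B, TUBB4B and TUBB6, and the gamma-tubulin TUBG1. Of these 10, 7 had a row among the 25880 genes of the count files and 6 had at least 1 read. TUBA1C was matched to no identifier, TUBA1A and TUBB2A were matched to identifiers outside these rows, and these 3 genes were not analysed here. A further 6 tubulin genes with a row (TUBAL3, TUBB1, TUBB3, TUBB4A, TUBD1 and TUBE1) are described beside them.

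The labels give each library as Sus scrofa, cell type oocyte, stage MII, the metaphase at which a mature egg waits for the sperm. Oocytes came as cumulus-oocyte complexes from 3 to 6 mm antral follicles of slaughterhouse ovaries, and polyadenylated RNA was amplified by a modified Smart-seq2 method. The malathion group was matured in medium with 1 mM malathion, an organophosphate insecticide, diluted from a 0.75 M stock in DMSO. The labels give the other group as control and do not say whether it received DMSO, how many oocytes made up a library, or whether replicates were separate cultures. The p-values below thus cover only variation among these libraries, and part of it may be technical. Melatonin, named in the series title, is given for none of these groups.

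Microtubules are polymers of alpha- and beta-tubulin pairs, and most animals carry several near-identical genes, called isotypes, for each. Gamma-tubulin sits in a ring complex that starts new microtubules. The meiotic spindle of a mammalian oocyte forms without centrioles, from stored tubulin and from tubulin made on stored mRNA. Tubulin mRNA is also known to be degraded on the ribosome when free tubulin is plentiful.

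Reads given to genes numbered between 25816040 and 42312341 in a library, and levels are given as CPM, the counts per 1000000 of these reads. The libraries were uneven in ways the groups do not follow. Both replicate 3 libraries detected 8492 (malathion) and 8344 (control) genes, against 12211 to 14707 in the other 4. Summed CPM of 10 oocyte markers was 74895, 53773 and 4336 in malathion replicates 1, 2 and 3, and 69169, 26725 and 3973 in control replicates 1, 2 and 3. BTG4 was the largest marker in every library except malathion replicate 3, at 44538 CPM in malathion replicate 1 and 2880 CPM in control replicate 3. In malathion replicate 3, ZP2 and MOS were the largest, at 2158 and 1458 CPM, and BTG4 was at 521 CPM. The similar sums of the replicate 3 libraries thus came from different markers. Of the cumulus and granulosa list, 10 markers were counted, with sums between 54.9 and 710 CPM in malathion and between 34.6 and 642 CPM in control libraries. Most of this was VCAN, between 14.1 and 424 CPM, and KITLG, between 15.8 and 244 CPM, and the steroidogenic genes CYP11A1 and STAR reached 81.6 and 25.0 CPM in malathion replicate 2. Of the other counted markers, INHA reached 3.78 CPM, TNFAIP6 2.56 CPM, HAS2 2.16 CPM, GJA1 1.66 CPM, FSHR 0.540 CPM and PTX3 0.252 CPM at most. PTX3 was at 0 in malathion replicates 1 and 3 and in control replicates 2 and 3. Theca, stroma, blood and endothelial marker lists stayed at 14.5 CPM or below. The replicate 3 libraries and control replicate 2 therefore stand apart, and several results that rest on them are given with and without them.

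The alpha-tubulin gene TUBA1B (ENSSSCG00000000190), a widely expressed isotype in human and mouse tissues, had the most reads of the 7 counted genes in 5 of the 6 libraries. It stood at 20.7, 44.2 and 470 CPM in malathion replicates 1, 2 and 3, and at 43.1, 338 and 2.95 CPM in control replicates 1, 2 and 3. The highest and the lowest library were thus malathion replicate 3 and control replicate 3, and the groups overlapped. Among all genes it ranked 3851, 2867 and 235 by counts in the malathion libraries, and 2719, 539 and 2469 in the control libraries. Within same-numbered libraries the malathion level was 0.481 times the control level in replicates 1, 0.131 times in replicates 2 and 159 times in replicates 3. The direction therefore differed between replicate numbers. CPM is a share of the gene reads of a library, so it does not give the amount of TUBA1B mRNA per oocyte.

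In edgeR's quasi-likelihood test over all genes, TUBA1B had a log2 fold change of 4.68 ± 2.30 (SE, malathion minus control, 95% confidence interval −0.25 to 9.61, adjusted p = 0.9998). It was higher in 1 of 3 same-numbered comparisons and did not pass the test. The size rested on malathion replicate 3 and on the TMM factors, scaling factors for differences in composition, which were 0.138 in that library and 0.141 in control replicate 3 against at least 2.26 in the others. With library totals alone the log2 fold change was 0.48, with the replicate number as a block −0.078, without malathion replicate 3 −1.77, and without both replicate 3 libraries −2.12 (adjusted p = 0.991). Leaving out control replicate 2 as well as both replicate 3 libraries, an alternative chosen after seeing the data, gave −0.49. Summed oocyte markers did not order the libraries by TUBA1B. The sums were at 4336 CPM in malathion replicate 3 and 26725 CPM in control replicate 2, the libraries with the most TUBA1B. They were at 3973 CPM in control replicate 3, the library with the least. Single markers differed from the sum. ZP2 and MOS, 2 of the 10, were highest in malathion replicate 3, at 2158 and 1458 CPM. Both were lowest in control replicate 3, at 23.9 and 2.85 CPM. Of the others, 2 were highest in malathion replicate 1 and 1 in malathion replicate 2. In control replicates 1, 2 and 3 the numbers were 2, 2 and 1. GDF9, ZP3, ZP4, BTG4, WEE2, KPNA7 and OOEP were lowest in malathion replicate 3, the library with the most TUBA1B. BMP15, like ZP2 and MOS, was lowest in control replicate 3. The part of the markers in the result was not tested.

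TUBA4A (ENSSSCG00000016216), an alpha isotype best known from human platelets and neurons, had 0 reads in each library. A count of 0 allows at most 3 reads, or 0.0709 to 0.116 CPM depending on the library, for counting error only. TUBAL3 (ENSSSCG00000029077), an alpha-like gene, stood at 30.8, 63.7 and 1.06 CPM in malathion replicates 1, 2 and 3 and at 49.3, 151 and 14.2 CPM in control replicates 1, 2 and 3. Its malathion level was below the same-numbered control level in 3 of 3 comparisons, but the groups overlapped. The labels do not say what the numbers mark, and the share of all tested genes with such a count was not computed. The log2 fold change of TUBAL3 was −1.85 ± 0.997 (95% confidence interval −3.99 to 0.28, adjusted p = 0.9998), and it was below 0 under each of the 14 alternatives. It lay closer to 0 without control replicate 3 (−1.04), without both replicate 3 libraries (−0.74) and without these and control replicate 2 (−0.14). TUBAL3 held 59.8%, 59.0% and 0.226% of the reads of the counted alpha-tubulin genes in malathion replicates 1, 2 and 3, and 53.4%, 30.9% and 82.8% in control replicates 1, 2 and 3. TUBA1B held the rest, so the balance of TUBA1B and TUBAL3 was opposite in the replicate 3 libraries. Of 11 alpha-tubulin genes listed, 8 were not counted, so these shares do not give the make-up of the whole family. The Wilson 95% intervals of these shares were 0.169% to 0.302% in malathion replicate 3 and 79.2% to 85.8% in control replicate 3.

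**Figure D1:**
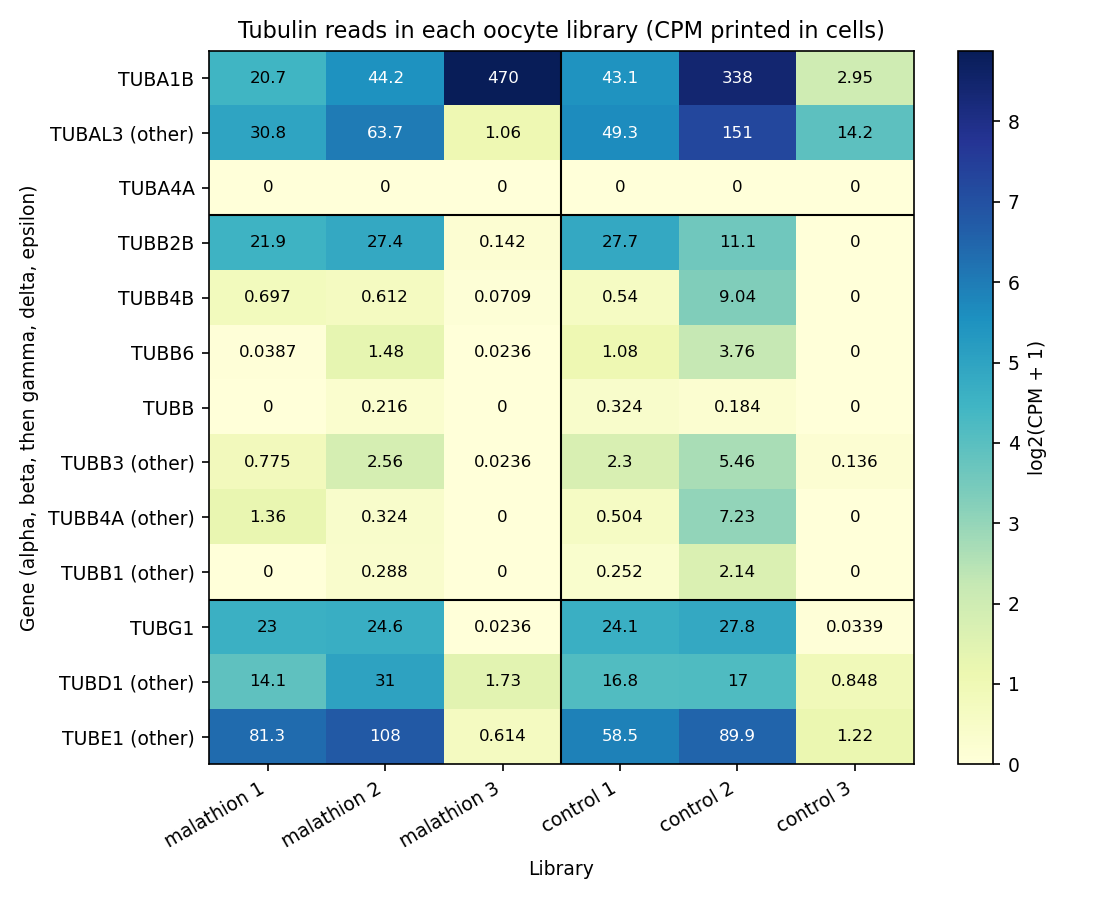
Each cell gives the CPM of 1 tubulin gene (rows, "other" for genes outside the 10 named ones) in 1 library (columns, malathion left of control), and the colour gives log2(CPM + 1). TUBA1B spans 2.95 to 470 CPM, TUBA4A is at 0 throughout, and the beta- and gamma-tubulin genes are near 0 in both replicate 3 libraries.

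TUBB2B (ENSSSCG00000033655), a beta isotype needed for neuronal migration in human brain, supplied most beta-tubulin reads in malathion replicates 1 and 2 and in control replicate 1. It stood at 21.9, 27.4 and 0.142 CPM in malathion replicates 1, 2 and 3 and at 27.7, 11.1 and 0 CPM in control replicates 1, 2 and 3. It had 566 to 770 reads in malathion replicates 1 and 2 and control replicate 1. Control replicate 2 held 302 reads and malathion replicate 3 held 6. Control replicate 3 held 0, where the limit of a count of 0 is 0.102 CPM. The groups overlapped, and the log2 fold change of TUBB2B was 0.50 ± 1.41 (95% confidence interval −2.52 to 3.52, adjusted p = 0.9998). The value was −0.058 without control replicate 3 and 2.12 without control replicate 1. It was 0.25 without control replicate 2 and 0.44 without both replicate 3 libraries.

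TUBB4B (ENSSSCG00000037046), a beta isotype of cilia and many other cells, was at 0.697, 0.612 and 0.0709 CPM in malathion replicates 1, 2 and 3, and at 0.540, 9.04 and 0 CPM in control replicates 1, 2 and 3. Control replicate 2 held 245 of its 298 reads. TUBB6 (ENSSSCG00000038992), another broadly expressed beta isotype, was at 0.0387, 1.48 and 0.0236 CPM in malathion replicates 1, 2 and 3, and at 1.08, 3.76 and 0 CPM in control replicates 1, 2 and 3. Both genes were thus highest in control replicate 2, and their groups overlapped. The log2 fold change was −1.53 ± 1.62 for TUBB4B and −1.09 ± 1.58 for TUBB6, with adjusted p = 0.9998 for each. Without control replicate 2 these were 1.14 for TUBB4B and −0.11 for TUBB6, and leaving out malathion replicate 2 moved TUBB6 to −3.01, against −0.47 when malathion replicate 1 was left out.

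TUBB (ENSSSCG00000001379), the most widely used beta isotype of human cells, had only 20 reads in all: 0, 6 and 0 in malathion replicates 1, 2 and 3 and 9, 5 and 0 in control replicates 1, 2 and 3. It did not pass the filter on low counts and was not tested. Near-identical tubulin copies can lose reads to the row for reads that align to more than 1 place, which took 2.45% to 8.37% of a file, so a low count of TUBB or TUBA4A does not show that its mRNA was scarce. The shares of reads among tubulin genes carry the same limit. TUBB1, TUBB3 and TUBB4A, beta isotypes best known from platelets and from the nervous system in human and mouse, reached 2.14, 5.46 and 7.23 CPM at most, each in control replicate 2. TUBB3 (ENSSSCG00000002639) stood at 0.775, 2.56 and 0.0236 CPM in malathion replicates 1, 2 and 3, and at 2.30, 5.46 and 0.136 CPM in control replicates 1, 2 and 3. TUBB4A (ENSSSCG00000013545) stood at 1.36, 0.324 and 0 CPM in malathion replicates 1, 2 and 3, and at 0.504, 7.23 and 0 CPM in control replicates 1, 2 and 3. TUBB1 was not tested. The log2 fold change was −1.18 ± 1.41 for TUBB3 and −1.57 ± 1.66 for TUBB4A (adjusted p = 0.9998 for each). TUBB3 was below the same-numbered control level in 3 of 3 comparisons, on 1 against 4 reads in replicates 3, a count not set against all tested genes. Its log2 fold change was below 0 under each of the 14 alternatives, at −2.09 without malathion replicate 2. It was −0.92 without control replicate 2 and −0.93 without both replicate 3 libraries. TUBB4A stood at −3.20 without malathion replicate 1 and at 0.89 without control replicate 2.

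The make-up of beta-tubulin reads was alike in 3 libraries and different in control replicate 2. TUBB2B held 88.4% and 83.4% of the reads of the 7 beta-tubulin genes in malathion replicates 1 and 2, and 84.7% and 28.6% in control replicates 1 and 2. The Wilson 95% intervals were 85.7% to 90.7% and 80.8% to 85.6% in these malathion libraries, and 82.2% to 86.9% and 26.0% to 31.4% in these control libraries. In control replicate 2, TUBB4B held 23.2%, TUBB4A 18.6%, TUBB3 14.0% and TUBB6 9.66%, against at most 7.78% for any of these genes in malathion replicates 1 and 2 and control replicate 1. Malathion replicate 3 had 11 beta-tubulin reads and control replicate 3 had 4, too few to compare. Marker lists also differed in control replicate 2 from the other 3 libraries. Summed oocyte markers were at 26725 CPM there against 53773 to 74895 CPM. BTG4 was at 7710 CPM there against 24612 to 44538 CPM, and BMP15, ZP2, ZP4, WEE2, KPNA7 and OOEP were lower too. GDF9 (2650 against 377 to 404 CPM) and ZP3 (998 against 348 to 417 CPM) were higher, and MOS lay within the range. Cumulus and granulosa markers summed to 425 against 642 to 710 CPM (VCAN and KITLG at 286 and 133 CPM of the 425). Theca and stroma markers were at 14.5 against 5.46 to 8.89 CPM, and blood and endothelial markers at 6.01 against 8.10 to 13.1 CPM. The part of these marker lists in the isotype shares was not tested.

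**Figure D2:**
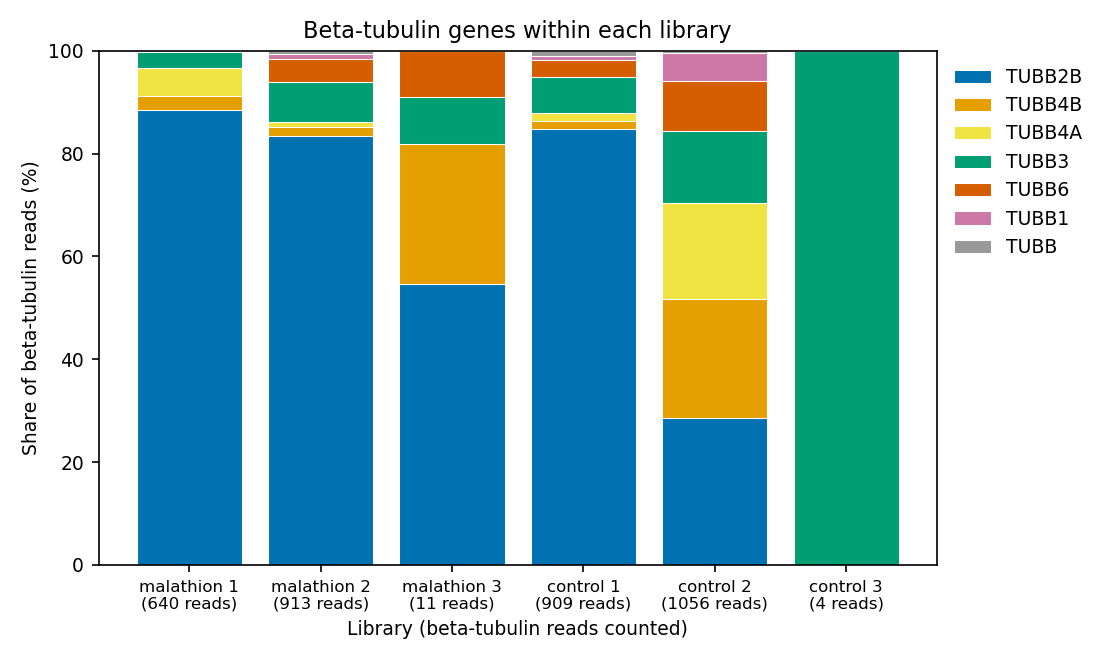
Bars give the share (%) of each of 7 beta-tubulin genes among the beta-tubulin reads of a library, with the number of reads under each bar and malathion libraries at the left. TUBB2B takes 83.4% to 88.4% in malathion replicates 1 and 2 and control replicate 1 and 28.6% in control replicate 2, while the replicate 3 bars stand for 11 and 4 reads.

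TUBG1 (ENSSSCG00000036106), the gamma-tubulin of the ring complex, was the steadiest of the named genes outside the replicate 3 libraries. It stood at 23.0, 24.6 and 0.0236 CPM in malathion replicates 1, 2 and 3, and at 24.1, 27.8 and 0.0339 CPM in control replicates 1, 2 and 3. Both replicate 3 libraries held 1 read each, against 595 to 753 reads in the other 4, and the groups overlapped. The log2 fold change of TUBG1 was 0.11 ± 1.38 (95% confidence interval −2.85 to 3.06, adjusted p = 0.9998), and 0.12 without both replicate 3 libraries. It lay between −0.43 (without control replicate 3) and 0.70 (without control replicate 1) when 1 library was left out. The interval shows that a several-fold difference in either direction was not detectable over all 6 libraries.

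Delta- and epsilon-tubulin, known from the triplet microtubules of centrioles, were also read. TUBD1 (ENSSSCG00000017669) stood at 14.1, 31.0 and 1.73 CPM in malathion replicates 1, 2 and 3, and at 16.8, 17.0 and 0.848 CPM in control replicates 1, 2 and 3. TUBE1 (ENSSSCG00000004423) stood at 81.3, 108 and 0.614 CPM in malathion replicates 1, 2 and 3, and at 58.5, 89.9 and 1.22 CPM in control replicates 1, 2 and 3. For both genes the replicate 3 libraries were the lowest of their group. The log2 fold change was 0.76 ± 0.986 for TUBD1 and 0.47 ± 1.01 for TUBE1 (adjusted p = 0.9998 for each), and neither passed the test. When 1 library was left out, TUBD1 lay between 0.60 and 1.03. TUBE1 stood at 0.22 without malathion replicate 1, 0.063 without malathion replicate 2, 0.98 without malathion replicate 3 and 0.13 without control replicate 3, and at 0.13 with the replicate block.

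Order among the 7 counted genes followed reads, not transcripts, because no transcript lengths were used. TUBA1B was first in malathion replicates 2 and 3 and in all 3 control libraries, and came behind TUBG1 and TUBB2B in malathion replicate 1. TUBB2B was second in all 3 malathion libraries and in control replicate 1, and came behind TUBA1B and TUBG1 in control replicate 2. TUBG1 came behind TUBA1B and TUBB2B in malathion replicate 2 and control replicate 1, and behind TUBA1B alone in control replicates 2 and 3. In malathion replicate 1, TUBA1B, TUBB2B and TUBG1 had 535, 566 and 595 reads, so that the first 3 places there lay within a narrow range. In malathion replicate 3 the order behind TUBA1B rested on 6 reads of TUBB2B, 3 of TUBB4B and 1 each of TUBB6 and TUBG1, and in control replicate 3 on 1 read of TUBG1 and 0 of the others, so it is not resolved there. Across genes that share libraries and depth, TUBB2B and TUBG1 had the most alike profiles (root mean square difference of centred log2(CPM + 1) of 0.50 over 6 libraries), and TUBA1B and TUBB2B the least alike (3.08).

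**Figure D3:**
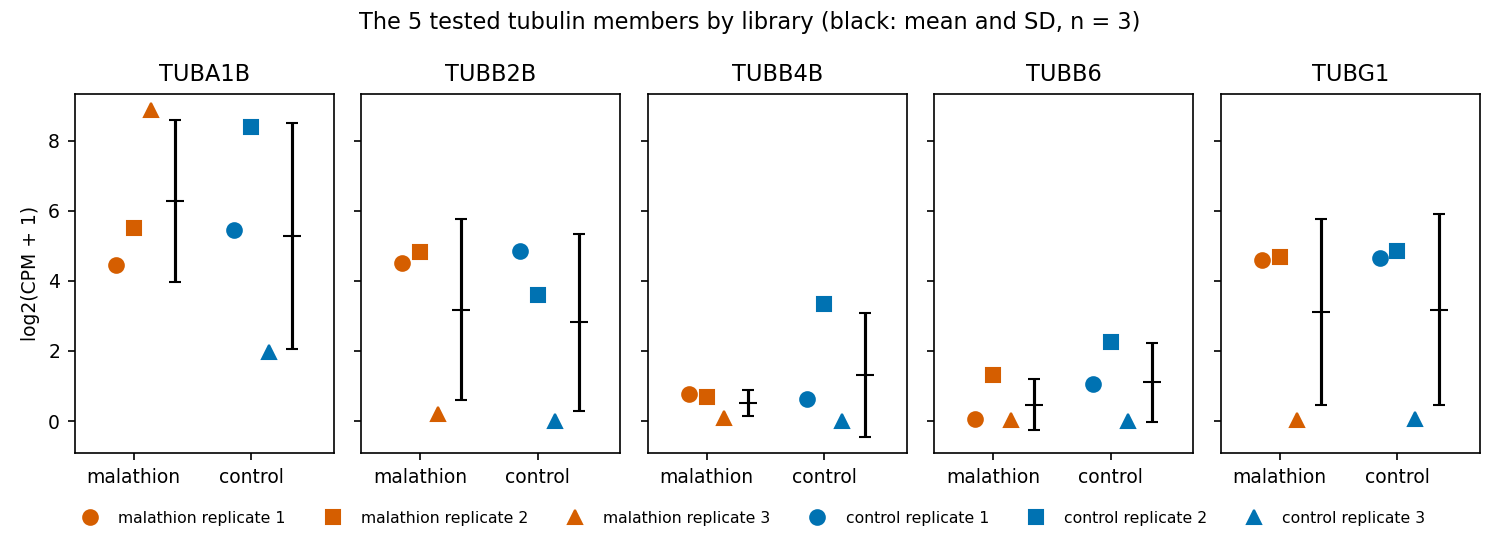
Points give log2(CPM + 1) of the 5 tested named genes in each library, malathion left and control right, with symbols for the replicate number and black bars for the mean and SD of 3 libraries. The groups overlap for each gene, and triangles, the replicate 3 libraries, lie near 0 for each gene except TUBA1B.

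The 7 counted genes summed to 66.4, 98.5 and 470 CPM in malathion replicates 1, 2 and 3, and to 96.8, 390 and 2.99 CPM in control replicates 1, 2 and 3. This was 212 ± 225 CPM in malathion and 163 ± 202 CPM in control libraries (SD, n = 3 each). The spread within each group exceeded the difference between them. Alpha-tubulin made up 47.8%, 59.8% and 99.9% of the alpha and beta reads of these genes in malathion replicates 1, 2 and 3, and 59.2%, 93.3% and 100% in control replicates 1, 2 and 3. The high shares belong to the libraries in which beta-tubulin reads were few or TUBA1B was high. TUBA1B alone made up 99.9% of the alpha and beta reads of these genes in malathion replicate 3. Alpha counted here was TUBA1B alone, because TUBA4A had 0 reads. The 100% of control replicate 3 stood for 87 against 0 reads. Over all 13 counted tubulin genes, alpha made up 67.5%, 76.6% and 99.9% of alpha and beta reads in malathion replicates 1, 2 and 3. In control replicates 1, 2 and 3 it made up 73.8%, 92.6% and 99.2%. The sum of these 13 genes was highest in control replicate 2 (662 CPM, against 474 CPM in malathion replicate 3).

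Malathion was compared with control to ask how the insecticide affects the mRNA stored in oocytes. Of the 7 counted genes, 5 passed the filter on low counts (TUBA1B, TUBB2B, TUBB4B, TUBB6 and TUBG1), and 0 of these 5 were called by edgeR at the adjusted threshold of 0.05, where 0% of all 10678 tested genes were called. At an unadjusted p under 0.05 the count was 0 of 5, against 3.59% of all tested genes. The log2 fold change was above 0 for 3 and below 0 for 2 of the 5 genes (median 0.11), where 46.6% of all tested genes were above 0 and the median was −0.08. CPM of the groups overlapped for all 5 tested members, and were without overlap for 0.749% of all tested genes. TUBA4A, with 0 reads, and TUBB, with 20, overlapped too but were not tested and had too few reads to differ. DESeq2, limma-voom and the other alternatives called 0 of the 10 tested tubulin genes too, with adjusted p from 0.739 to 0.999994. DESeq2 gave no p for TUBA1B. The highest CPM lay in control replicate 2 for 6 of the 10 tested tubulin genes, near the share of 54.7% over all tested genes. It lay in malathion replicate 3 for TUBA1B, as for 2.91% of all tested genes.

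**Figure D4:**
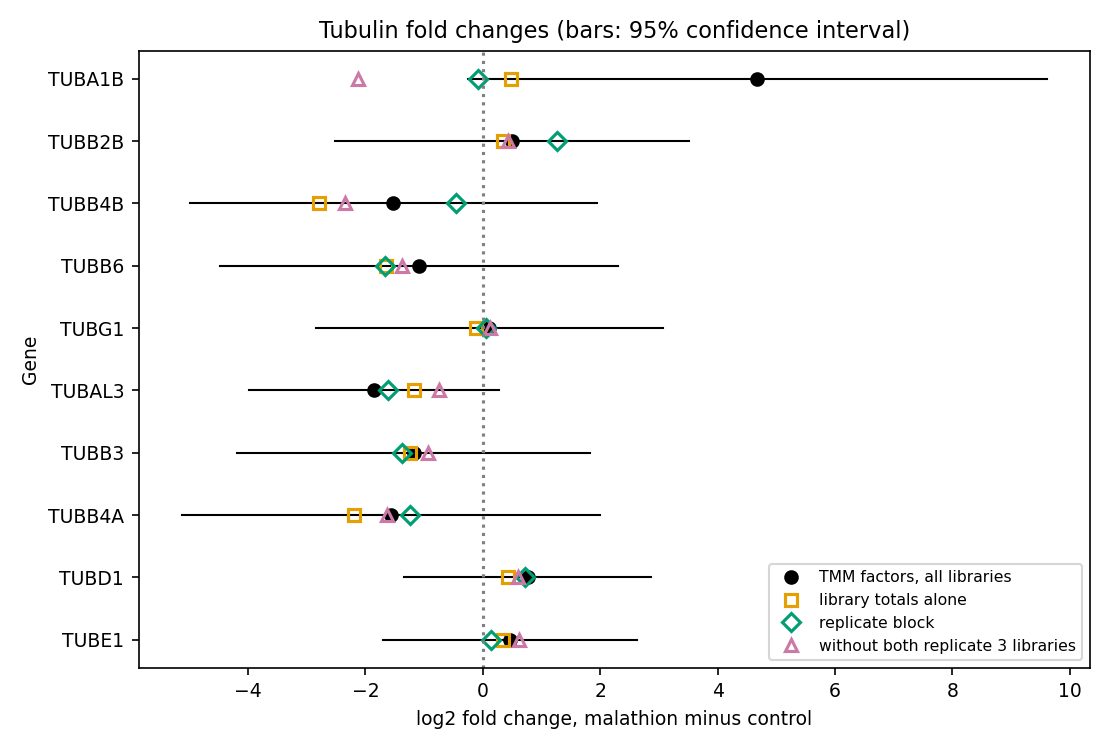
Black points give the log2 fold change (malathion minus control) of the 10 tested tubulin genes with 95% confidence intervals, and open symbols the value with library totals alone, with the replicate block and without both replicate 3 libraries. Each interval includes 0, and TUBA1B moves the most, between −2.12 and 4.68.

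The genes with a profile most like that of TUBA1B, the named gene with the highest median CPM, were COX6A1, RASGEF1A and NOBOX, out of 4719 genes with a mean of at least 10 CPM. Their root mean square differences over 6 libraries were 0.37, 0.45 and 0.70 on the centred log2(CPM + 1) scale, against a median of 2.87 over the genes searched. COX6A1 (ENSSSCG00000039265), a subunit of respiratory complex IV, stood at 17.5, 39.3 and 299 CPM in malathion replicates 1, 2 and 3, and at 31.8, 193 and 0.679 CPM in control replicates 1, 2 and 3. NOBOX (ENSSSCG00000024977), an oocyte transcription factor, stood at 3.72, 6.81 and 54.2 CPM in malathion replicates 1, 2 and 3, and at 5.58, 20.5 and 0.170 CPM in control replicates 1, 2 and 3. RASGEF1A (ENSSSCG00000010201) reached 203 CPM in malathion replicate 3 and 60.5 CPM in control replicate 2. All 3 genes shared with TUBA1B a maximum in malathion replicate 3 and a minimum in control replicate 3. They were picked as the nearest profiles over these libraries, so this likeness largely follows from the choice and is not a separate result.

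Tubulin works with folding factors, nucleators, modifying enzymes and binding proteins, and 107 such genes were listed in 5 groups. Of these, 91 were counted and 79 tested. None passed edgeR's quasi-likelihood test, where 0% of all tested genes were called. An unadjusted p under 0.05 was found for 4 of the 79, against 3.59% of all tested genes. Values above 0 on the log2 scale were found for 41 genes and below 0 for 38, where 46.6% of all tested genes were above 0 and 53.4% below. The alternatives called none of them either.

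The ring complex, augmin and their anchors had 8 of 14 tested genes above 0 and 6 below (median 0.087, from −0.19 without malathion replicate 1 to 0.36 without control replicate 2, and −0.082 with library totals alone, where that of all tested genes was −0.33). Their summed level was 1077, 1256 and 128 CPM in malathion replicates 1, 2 and 3, and 1159, 850 and 801 CPM in control replicates 1, 2 and 3. Most of the 801 CPM came from HAUS1 (479 CPM) and HAUS4 (307 CPM). HAUS1, an augmin subunit that helps microtubules branch in the spindle, stood at 44.9, 83.0 and 11.0 CPM in malathion replicates 1, 2 and 3, and at 53.8, 135 and 479 CPM in control replicates 1, 2 and 3. The groups overlapped, and HAUS1 had a log2 fold change of −4.73 ± 2.19 (adjusted p = 0.9998), which was 0.53 without control replicate 3. TUBGCP3 and TUBGCP5, subunits of the gamma-tubulin ring, had log2 fold changes of 2.62 ± 1.57 and 0.93 ± 0.980. TUBGCP3 stood at 0.90 without malathion replicate 3 and at 1.1 with library totals alone, and TUBGCP5 at 0.57 without control replicate 3 and 1.94 without control replicate 1. TUBGCP5 stood at 65.8, 67.1 and 1.56 CPM in malathion replicates 1, 2 and 3, and at 54.6, 23.6 and 0.679 CPM in control replicates 1, 2 and 3. TUBGCP3 stood at 2.21, 2.09 and 0.993 CPM in malathion replicates 1, 2 and 3, and at 1.98, 0.406 and 0.0679 CPM in control replicates 1, 2 and 3. It had 42 against 2 reads in replicates 3. Both genes were above the same-numbered control library in 3 of 3 comparisons, a count not set against all tested genes. The groups overlapped for both.

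Tubulin folding genes, which code for the chaperonin CCT, prefoldin and the tubulin cofactors, had 11 of 17 tested genes above 0 and 6 below (median 0.17). The split was 6 above and 11 below with library totals alone (median −0.14) and without control replicate 3 (median −0.25). All tested genes shifted the same way, with 3598 of 10678 above 0 and a median of −0.33 with library totals alone, and a median of −0.19 without control replicate 3. The folding genes summed to 2082, 2291 and 130 CPM in malathion replicates 1, 2 and 3, and 2182, 2067 and 49.8 CPM in control replicates 1, 2 and 3, so the replicate 3 libraries were low here as for beta- and gamma-tubulin. CCT3, a chaperonin subunit, stood at 27.4, 22.6 and 69.6 CPM in malathion replicates 1, 2 and 3, and at 22.7, 25.5 and 0.170 CPM in control replicates 1, 2 and 3. It had a log2 fold change of 4.86 ± 1.66 (adjusted p = 0.9998), which was 0.78 without malathion replicate 3. PFDN1, a prefoldin subunit, and CCT4, another chaperonin subunit, had −2.86 ± 1.36 and −2.51 ± 1.34. PFDN1 stood at 0.59 without control replicate 3, and CCT4 at −0.53 without control replicate 2.

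Tubulin mRNA autoregulation was represented by all 3 listed genes. TTC5, which recognises nascent tubulin chains on the ribosome, stood at 794, 903 and 113 CPM in malathion replicates 1, 2 and 3, and at 832, 514 and 216 CPM in control replicates 1, 2 and 3. SCAPER, an adaptor between TTC5 and the deadenylase, stood at 76.1, 143 and 1.28 CPM in malathion replicates 1, 2 and 3, and at 112, 49.7 and 1.15 CPM in control replicates 1, 2 and 3. The groups overlapped for both. The log2 fold changes were −0.43 ± 1.58 for TTC5, 0.48 ± 1.02 for SCAPER and 0.35 ± 1.01 for CNOT11, the deadenylase subunit bound by SCAPER, and none passed the test. The sign of each turned when 1 library was left out, to 1.03 for TTC5 without control replicate 3, −0.10 for SCAPER without malathion replicate 2 and −0.76 for CNOT11 without malathion replicate 3. With library totals alone TTC5 stood at 0.21 and CNOT11 at −0.16.

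Enzymes that modify tubulin after translation had 6 of 17 tested genes above 0 and 11 below (median −0.46). Without control replicate 2 the split was 12 above and 5 below (median 0.37), where the median of all tested genes was 0.22. Their summed level was 172, 253 and 6.85 CPM in malathion replicates 1, 2 and 3, and 180, 666 and 293 CPM in control replicates 1, 2 and 3. TTLL3, which adds glycine to tubulin, stood at 9.72, 14.3 and 3.66 CPM in malathion replicates 1, 2 and 3, and at 7.41, 115 and 290 CPM in control replicates 1, 2 and 3. It had a log2 fold change of −5.86 ± 2.25 (adjusted p = 0.9998), which was −0.55 without control replicate 3. HDAC6, a deacetylase of alpha-tubulin, and TTLL4, a glutamylase, had −2.95 ± 1.86 and −2.30 ± 1.71. Of the reads of HDAC6, 159 lay in control replicate 2 and 0 to 13 in each other library, and its value was −0.67 without control replicate 2 and −8.00 without malathion replicate 1. TTLL4 had 396 reads there and at most 42 elsewhere, and its value was −0.18 without that library.

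Microtubule-associated proteins, polymerases, destabilisers and severing enzymes had 14 of 28 tested genes above 0 and 14 below (median 0.00042). Their summed level was 6593, 6615 and 1800 CPM in malathion replicates 1, 2 and 3, and 6954, 6175 and 7361 CPM in control replicates 1, 2 and 3. Most of the 7361 CPM came from CKAP2 (4668 CPM) and MAPRE2 (1774 CPM), so this sum does not stand for the whole list. MAPRE2, which binds growing microtubule ends, stood at 45.2, 29.2 and 3.66 CPM in malathion replicates 1, 2 and 3, and at 26.9, 88.6 and 1774 CPM in control replicates 1, 2 and 3. It had a log2 fold change of −7.78 ± 3.28 (adjusted p = 0.9998), which was 0.094 without control replicate 3. CLASP1, which stabilises growing ends, and KATNA1, the severing subunit of katanin, had −2.11 ± 1.60 and 1.40 ± 1.14. CLASP1 stood at −0.030 without control replicate 2, and KATNA1 at 0.91 without control replicate 3 and 3.11 without control replicate 1.

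**Figure D5:**
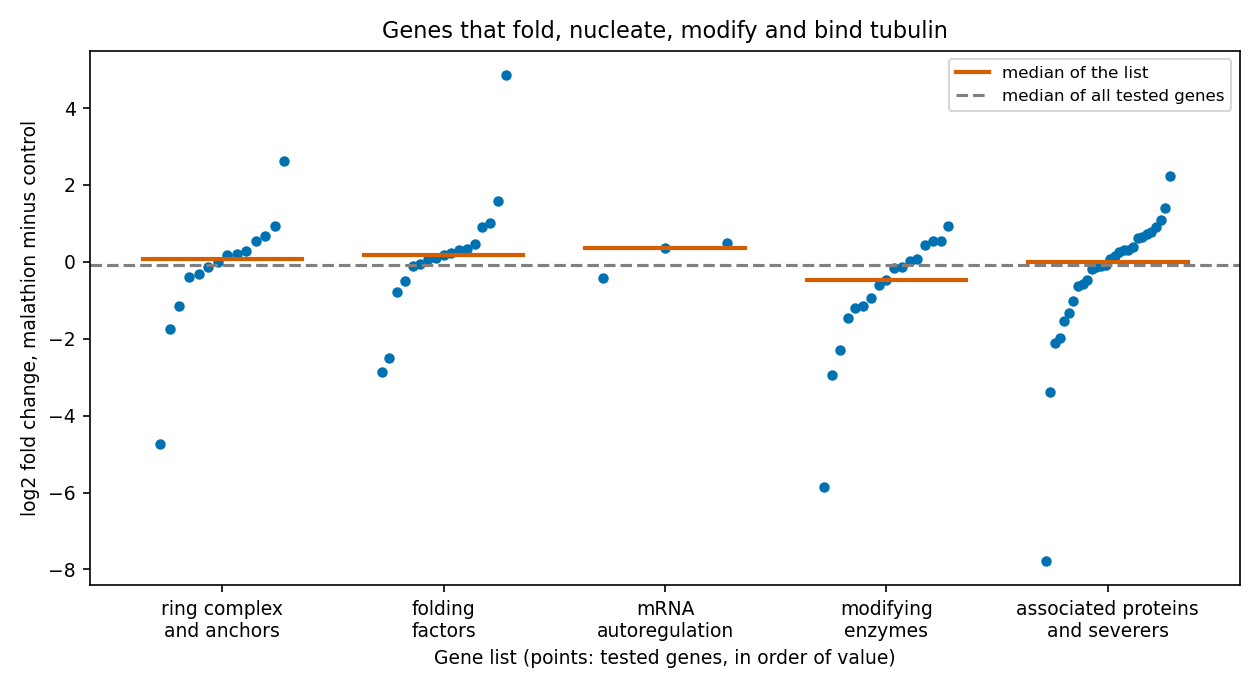
Points give the log2 fold change (malathion minus control) of each tested gene in 5 lists of tubulin partners, with the median of the list (orange) and of all 10678 tested genes (dashed, −0.08). List medians lie between −0.46 and 0.35, and the far points include MAPRE2 at −7.78, TTLL3 at −5.86, HAUS1 at −4.73 and CCT3 at 4.86.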

How the data were processed

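The authors deposited 1 file of unscaled read counts per gene for each library. STAR 2.5.3a, HTSeq 0.9.1 and DESeq2 1.20.0 are named, per the submitters' processing notes; build, annotation and strand setting are not given in the sources used here. Reads given to no gene (5 closing rows, 36.7% to 42.6% of a file) stayed out of all totals. Symbols came from a table of gene names covering 14857 of the 25880 identifiers, to which a RefSeq table added 0.

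Counts were scaled to CPM on gene totals. The comparison used the quasi-likelihood test of edgeR 4.0.16 in R 4.3.3 (TMM factors; filterByExpr with a minimum count of 10 and a minimum total of 15; two-sided; Benjamini-Hochberg adjustment over 10678 genes; threshold 0.05). Standard errors came from the F statistic. Shares of reads carry Wilson 95% intervals, for counting error only. The fits were tried on data simulated from a common profile, without outlying libraries. That was a check of the code and does not show how the fits perform on these data. No library was a duplicate (chi-square per degree of freedom of at least 61.8 for each pair).

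Same-numbered libraries deviated together from their group means (r = 0.466, 0.467 and 0.573 across genes for replicates 1, 2 and 3). Differently numbered libraries among replicates 1 and 2 did so about as much (r = 0.457 for malathion 2 with control 1 and 0.374 for malathion 1 with control 2), while replicate 3 libraries opposed them (r from −0.553 to −0.459). The labels leave the meaning of the numbers unstated, and the numbers mainly part replicates 3 from the rest. The replicate block, DESeq2 1.42.0, limma-voom (limma 3.58.1), other scalings, no filter and leaving out libraries were alternatives.

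Genes and lists were chosen with earlier results of these data known. Named are all 10 tubulin genes, other tubulin genes averaging at least 1 CPM, the 3 tested genes with the smallest p in each partner list, and the 3 genes nearest in profile to TUBA1B. TUBB1 averaged less and was named after its values were seen, as were HAUS4 and CKAP2.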

Additional observations from a re-analysis of the deposited data

How the results depend on the processing

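Over 14 alternatives, 0 of the 10 tested tubulin genes and 0 members of the partner lists were called. Of 140 recomputed log2 fold changes of these tubulin genes, 123 kept their direction and 17 turned it. Over all genes, 60 were called without the filter on low counts and 0 to 3 when 1 library was left out, against 0 in the reported fit. When 1 library was left out, the log2 fold change ranged from −1.77 to 5.87 for TUBA1B, from −0.058 to 2.12 for TUBB2B, from −2.03 to 1.14 for TUBB4B, from −3.20 to 0.89 for TUBB4A, from −3.01 to −0.11 for TUBB6, from −2.09 to −0.82 for TUBB3, from −2.34 to −1.04 for TUBAL3, from 0.063 to 0.98 for TUBE1, from 0.60 to 1.03 for TUBD1 and from −0.43 to 0.70 for TUBG1. Direction also turned for TUBA1B with the replicate block (−0.078) and without both replicate 3 libraries (−2.12), for TUBB4B with limma-voom (0.40), and for TUBG1 with library totals alone (−0.12) and with limma-voom (−0.013). Without both replicate 3 libraries and control replicate 2, chosen after seeing the data, it turned for TUBA1B (−0.49), TUBB2B (−0.22), TUBB4A (0.76), TUBB4B (0.24) and TUBG1 (−0.059). The cause was not tested. The replicate block changed no call (0 genes). Library totals alone moved the median log2 fold change of all genes from −0.08 to −0.33. The summed CPM of the 7 counted genes, malathion minus control, was 48.6, and ranged from −80.7 to 162 when 1 library was left out. The alpha share of alpha and beta reads of these 7 genes differed by −15.0 percentage points, and by −30.4 to −4.31 when 1 library was left out. Values per coding length were not run. Few reads limit the beta- and gamma-tubulin genes in both replicate 3 libraries.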
